A study of Mus musculus with 42 samples.

Results

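The 10 genes described here encode parts of skeletal muscle fibres: Acta1, Tnni2, Myl1, Neb, Ttn, Actn3, Ckm, Tnnt3, Mylpf and Myh4. They were chosen by gene symbol, with results of these arrays already known, because single dissected tissues carried them at high levels; the values that single out those tissues are therefore given only as a description. The genes were measured by 16 probes, among 20018 named genes on the array. Male Muta™Mouse, a strain in which every group carries the lacZ reporter transgene, had been dosed for 28 days by oral gavage with BkF (benzo(k)fluoranthene), an aromatic hydrocarbon of combustion products, in olive oil. Vehicle mice received 0 mg/kg-bw/day, the low dose group 25, the medium dose group 50 and the high dose group 100. The mice were about 11 weeks old, and lung, liver and forestomach were taken 72 h after the last dose. There were 42 arrays from 15 mice. Vehicle, low, medium and high dose had n = 4, 3, 4 and 4 in lung, 4, 2, 3 and 4 in liver and 4, 3, 4 and 3 in forestomach. Each array was hybridised with 1 tissue RNA in the red channel and a reference RNA pooled from mouse cell lines in the green channel, without a dye swap, and every level below is a log2 ratio of tissue over reference RNA for 1 probe. RNA came from a random slice of the left liver lobe, the right lung lobe or the forestomach. Whether a slice held neighbouring tissue was not tested.

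Skeletal muscle contracts as myosin filaments pull on actin filaments within the sarcomere. Acta1 is the actin of the thin filament. Neb encodes nebulin, which runs along that filament, and Tnni2 and Tnnt3 are the fast-fibre troponins that hold it inactive until calcium rises. Myh4 is the myosin heavy chain of type IIb fibres, the fastest fibres of the mouse, and Myl1 and Mylpf are light chains of fast myosin. Ttn encodes titin, the elastic filament that centres the thick filament. Actn3 encodes the actinin of the fast-fibre Z-disc, and Ckm the creatine kinase that restores ATP in muscle. Ttn and Ckm are also active in heart muscle, and Myl1 has transcripts that heart muscle of the embryo uses.

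The promoters of 6 of the 10 genes were found in the RefSeq promoter table for the mouse build GRCm38.p6, and 3 are shown because their genes behaved differently between tissues: Acta1 and Ckm were measured in forestomach, where Myh4 was not. The 250 bases before the start of transcription are given 5′ to 3′ on the gene's own strand, and capitals mark the E-box, CANNTG, the letters bound by the MyoD family of muscle factors. The stretches are chr8:123894776-123895025 on the minus strand for Acta1, chr7:19410844-19411093 on the plus strand for Ckm and chr11:67237562-67237811 on the plus strand for Myh4.
Acta1: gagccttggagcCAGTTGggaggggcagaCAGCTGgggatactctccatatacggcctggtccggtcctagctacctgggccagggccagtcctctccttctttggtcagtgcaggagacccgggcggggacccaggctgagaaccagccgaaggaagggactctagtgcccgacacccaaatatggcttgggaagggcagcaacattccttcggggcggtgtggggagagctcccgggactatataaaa
Ckm: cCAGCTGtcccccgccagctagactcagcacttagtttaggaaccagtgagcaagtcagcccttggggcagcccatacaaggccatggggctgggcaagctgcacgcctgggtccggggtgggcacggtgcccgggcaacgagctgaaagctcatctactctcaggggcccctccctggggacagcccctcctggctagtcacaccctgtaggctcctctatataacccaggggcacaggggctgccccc
Myh4: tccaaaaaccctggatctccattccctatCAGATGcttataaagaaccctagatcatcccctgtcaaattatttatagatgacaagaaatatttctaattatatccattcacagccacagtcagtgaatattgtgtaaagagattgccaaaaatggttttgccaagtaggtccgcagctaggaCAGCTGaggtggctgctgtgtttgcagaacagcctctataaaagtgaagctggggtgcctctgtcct
An E-box stood in all 6 promoters, with 2 in Acta1, 2 in Myh4 and 1 in each of Ckm, Myl1, Ttn and Mylpf, and in 66.2% of the 32851 promoter stretches of that length in the table. The CArG box bound by serum response factor was found in Acta1 and Myh4, and in 1.47% of all stretches. The MEF2 site was found in Myh4 and Ttn, and in 2.92% of all stretches. Each of these patterns reads the same on both strands, so a single search covers both, and a match is not a measured binding site.

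The arrays carried the tissue named in their labels. The mean of 8 lung genes was between 5.13 and 6.07 on the 15 lung arrays, and the mean of 8 liver genes between 7.95 and 8.70 on the 13 liver arrays. The mean of 8 genes of squamous epithelium was between 2.97 and 4.21 on the 14 forestomach arrays. Of these arrays, 9 also held genes of the glandular stomach at a mean between 5.16 and 6.35 and 5 between 0.57 and 1.83. The lung of low-dose mouse 7 held these glandular genes too, at a mean of 3.99, where the other lungs were between 0.04 and 1.19. The excess of a gene on an array was defined as its log2 ratio minus the median over the other arrays of that tissue, and the score of an array as the mean excess over the 10 genes. A single array per tissue stood apart in lung and in liver and none in forestomach. The lung of medium-dose mouse 12 scored 5.86 and the liver of high-dose mouse 17 scored 4.14. The next highest was the lung of high-dose mouse 20, at 0.71, followed by lungs at 0.47 and below. The other 14 lungs lay between -0.62 and 0.71, the other 12 livers between -0.18 and 0.09, and the 14 forestomachs between -0.50 and 0.40. Neither mouse had muscle genes raised in its other tissues. Mouse 12 scored -0.01 in liver and -0.34 in forestomach, and mouse 17 scored 0.05 in lung and -0.50 in forestomach. On the slide that held the lung of mouse 12, the other arrays scored between -0.50 and 0.37, and on that of the liver of mouse 17 between -0.18 and 0.09.

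**Figure D1:**
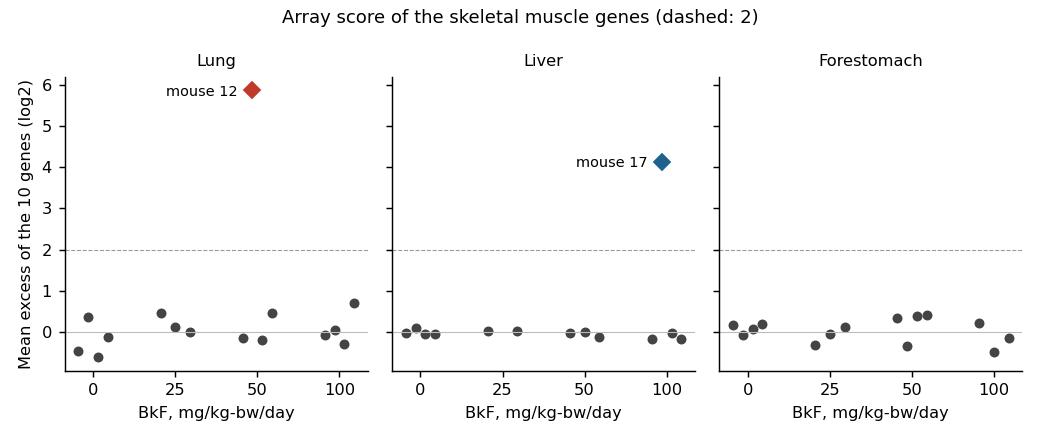
Score of each array, the mean excess of the 10 skeletal muscle genes on the log2 scale, by tissue and BkF dose, with 1 point per array and a dashed line at 2. The lung of mouse 12 at 5.86 and the liver of mouse 17 at 4.14 lie above that line, and every other array lies at or below 0.71.

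In the lung of mouse 12 all 10 genes lay above the range of the other 14 lungs. For the thin filament, Acta1 was at 5.56, against other lungs from -2.29 to -1.16 with a median of -1.74. Neb was at 6.48, against -0.16 to 0.27 with a median of 0.06. Of the troponins, Tnni2 was at 5.93, where the other lungs ran from -1.63 to -0.98 with a median of -1.29. These 3 genes were thus high in a single lung.
Tnnt3 was at 4.51, with the others between -1.48 and -0.44 and a median of -0.99. Myl1 was at 6.29, against -2.92 to 1.72 with a median of -0.51, and the titin gene Ttn at 7.27, against -0.31 to 3.77 with a median of 1.17. Myl1 and Ttn also varied widely among the other lungs. Ckm was at 5.29, against -0.33 to 2.25 with a median of 0.47. Actn3 was at 3.66, against -3.21 to -1.56 with a median of -2.39.
Myh4 and Mylpf were well above background on no other lung array. For such genes a lower bound is given from the tissue channel alone, with intensities made comparable between arrays and each dim array set at its own signal or the lowest signal well above background, whichever was higher. That bound is another quantity than the log2 ratio, can exceed the fold of the ratios, and is open to dye bias without a dye swap. Myh4 was at a log2 ratio of 5.00, an excess of 5.02, and its tissue channel was at least 224-fold higher than in the other lungs. Mylpf was at 3.38, an excess of 3.44, and its tissue channel was at least 8.17-fold higher. The reference channel, which held the same RNA on every array, was not constant for these genes: on the array of mouse 12 its signal was above that of all other lung arrays for 9 of the 10 genes. It was 636.5 units for Myh4 against 24 to 34.5 units elsewhere, and 3042.5 for Acta1 against 584.5 to 786. The reference signal there was between 1.13 and 21 times the median of the other lungs, so the ratios of this lung are smaller than those an unchanged reference would give. The excess of the 10 genes ran from 3.44 for Mylpf to 7.30 for Acta1. Ranked among the 14569 named genes well above background on this array, Acta1, Tnni2 and Myl1 came at ranks 2, 3 and 5 by excess. Of those 14569 genes, 7.23% had an excess of at least 1 log2 unit, and all 10 members did; since the members were chosen on these values, nothing is read from the comparison.

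**Figure D2:**
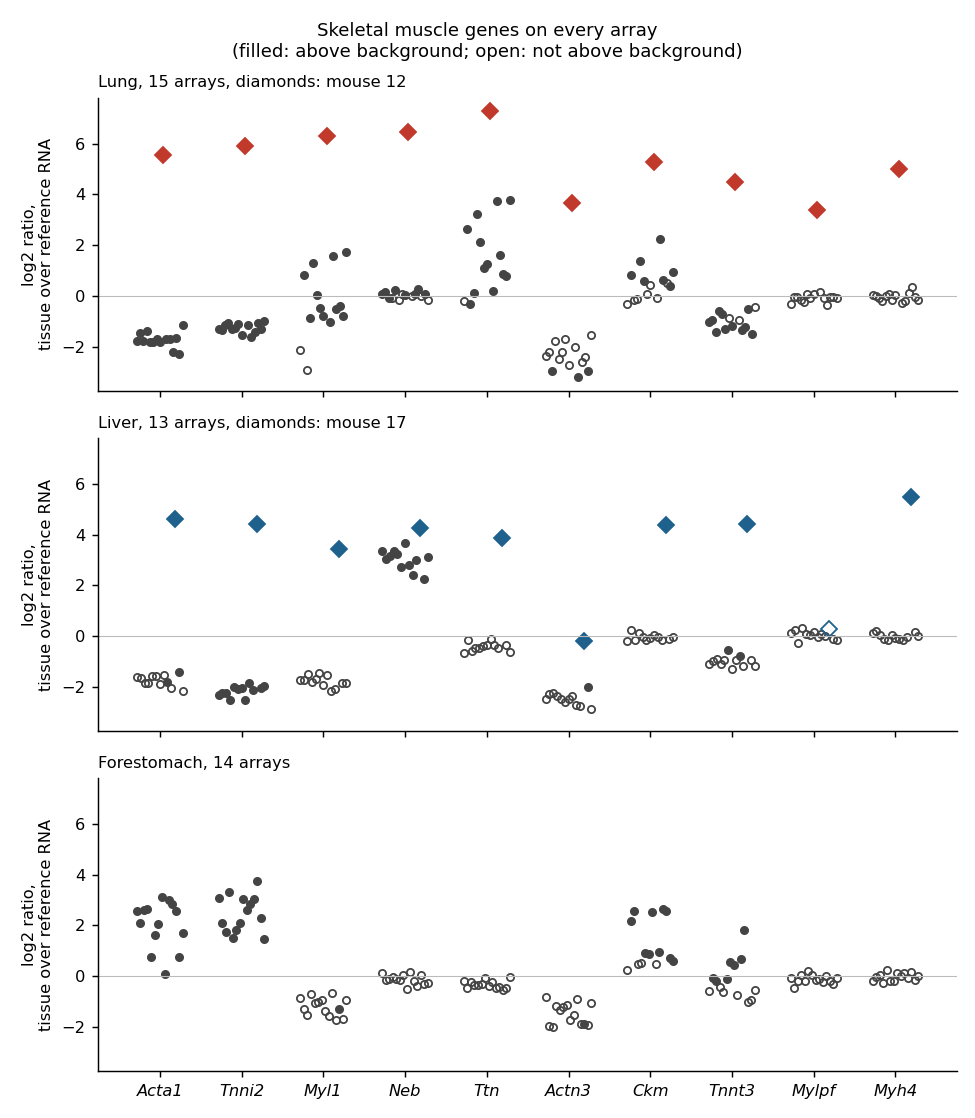
Log2 ratio of tissue over reference RNA for each of the 10 genes on every array, in lung, liver and forestomach, with filled symbols for a tissue signal well above background and open symbols for the rest. The diamonds of mouse 12 in lung run from 3.38 to 7.27, above all other lungs, and those of mouse 17 in liver lie above all other livers for every gene but Mylpf, at 0.27.

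In the liver of mouse 17, 9 of the 10 genes lay above the range of the other 12 livers. Myh4, the type IIb myosin, was at 5.49 against -0.16 to 0.20 in the others, and its tissue channel was at least 66.3-fold higher. Tnni2 was at 4.44, against -2.54 to -1.84 with a median of -2.11, and Acta1 at 4.63, against -2.17 to -1.41 with a median of -1.72. Both troponins were raised, with Tnnt3 at 4.40 against -1.30 to -0.57.
Myl1, Ttn and Ckm were well above background on no other liver array. They were at 3.44, 3.88 and 4.37, and their tissue channel was at least 31-fold, 19.1-fold and 20-fold higher than in the other livers. The reference signal was above that of all other livers for 4 of the 10 genes, and at most 1.93 times their median. Actn3 was at -0.20, against -2.88 to -1.99 with a median of -2.47. Mylpf was not well above background on any liver array, and stood at 0.27 on this one against -0.29 to 0.31 on the others. The same probe also gave the smallest excess in the lung of mouse 12, where its tissue signal was 548 units. Of the 12418 named genes well above background on this liver array, 3.06% had an excess of at least 1 log2 unit, beside 9 of the 10 members.

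Other probes of the same genes had a positive excess on both arrays where they were well above background, with smaller sizes than the main probe for Ttn and Myl1. In the lung of mouse 12 the other 3 Ttn probes had an excess of 3.97, 3.02 and 1.99. In the liver of mouse 17 they had 2.52, 0.05 and 0.48, in the same order, and the last pair was not well above background there and showed no direction. The second probe of Tnnt3 had an excess of 6.0 and 5.79 on these arrays, and the second probe of Neb 5.71 and 1.57. The second probe of Myl1 had 4.53 and 2.87, against 6.79 and 5.22 for the main probe.

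The fibre type was described with 10 further fast-fibre genes and 10 slow-fibre genes. Fibre types differ in their myosin heavy chain: Myh4 marks type IIb, Myh1 type IIx, Myh2 type IIa and Myh7 the slow type I. On both arrays all 10 fast-fibre genes had an excess of at least 1 log2 unit, with a median of 5.12 in the lung of mouse 12 and 3.44 in the liver of mouse 17. Of the slow-fibre genes, 7 of 10 did so in the lung and 5 of 10 in the liver, with medians of 2.49 and 0.96. These medians are over different probes with different starting levels. In the other lungs the mean log2 ratio of the slow list was between 0.41 and 1.90 and that of the fast list between -0.78 and -0.20. Myh1, Myh2, Casq1 and Tnni1 in lung, and Myh1, Casq1 and Mybpc2 in liver, were well above background on no other array of the tissue. The tissue channel of Casq1 was at least 7.97-fold higher in the lung and 2.12-fold in the liver, that of Tnni1 at least 6.06-fold in the lung and that of Mybpc2 at least 10.1-fold in the liver.
All 3 adult fast myosins were present on both arrays. Myh1 was at 6.01 in the lung of mouse 12 and 5.67 in the liver of mouse 17, and was well above background on no other array of either tissue. Its excess was 6.25 and 5.86, and its tissue channel was at least 505-fold higher than in the other lungs and at least 66.1-fold higher than in the other livers. Myh2 was at 6.07 and 5.81, and its tissue channel was at least 169-fold higher than in the other lungs. The levels of different myosins were not ranked, since each comes from a probe of its own.
Myh7, the slow myosin, stood out in liver and not in lung. In liver it was at 3.19 on the array of mouse 17, against -0.63 to -0.09 on the others, an excess of 3.61. In lung it was at 5.11 in mouse 12, within the range of the other 14 lungs, 4.59 to 5.25, so this probe did not set that lung apart. The slow light chain Myl2 was raised on both, with an excess of 4.07 in the lung and 3.58 in the liver, against arrays of which 2 of 14 lungs and 1 of 12 livers were well above background. Tnni1, the slow troponin I, had an excess of 2.92 and 0.46, and Tnnt1, the slow troponin T, 3.24 and 1.19. Tnnc1, the troponin C shared by slow fibres and heart, had 1.90 and 0.34, and the slow-fibre calcium pump Atp2a2 0.76 and -0.01. Myl3, a slow and ventricular light chain, had 2.66 and 2.93.
The sizes of the other excesses were not ordered between the arrays, since for many of these genes the comparison arrays lay at background. Tnnc2, the fast troponin C, had an excess of 5.76 in the lung and 6.47 in the liver. The enzymes Pgam2 and Eno3 of muscle glycolysis had 5.40 and 5.15 in the lung and 3.47 and 2.36 in the liver. Atp2a1, the fast calcium pump, had 5.08 and 2.53, Myoz1 of the Z-disc, well above background on 3 of 14 other lungs and 1 of 12 other livers, 4.95 and 3.41, and Mybpc2, the fast myosin binding protein C, 3.96 and 3.58. Pvalb, the calcium buffer of fast fibres, had 3.21 and 2.77, and the calcium store protein Casq1 2.97 and 1.14. Myoz2 and Casq2, the partners of Myoz1 and Casq1 in slow and heart muscle, had 3.65 and 2.32 in the lung and 1.75 and 0.74 in the liver. Myh7b had 0.47 and -0.16 and was not well above background in that liver.

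**Figure D3:**
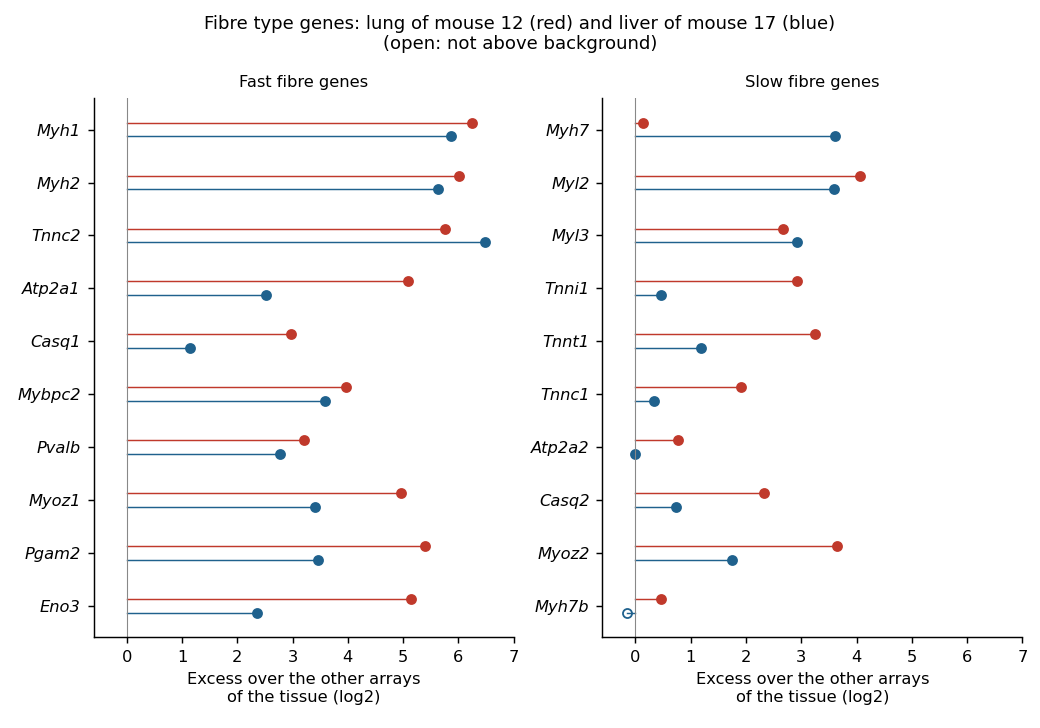
Excess on the log2 scale of 10 fast-fibre and 10 slow-fibre genes in the lung of mouse 12 and the liver of mouse 17, with 1 point per gene and array and open points where the tissue signal was not well above background. The fast genes run from 1.14 to 6.47, and the slow genes from -0.16 to 4.07, with Myh7 at 0.13 in the lung and 3.61 in the liver.

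Other muscle genes were raised with them, where raised means an excess of at least 1. Of 14 sarcomere genes common to all fibres, 13 had an excess of at least 1 in the lung of mouse 12 and 10 in the liver of mouse 17, with medians of 3.81 and 2.01. In the lung these included Myot, a Z-disc protein, which was well above background on no other lung and whose tissue channel was at least 115-fold higher there. In the liver they included Tcap, which caps titin, at 5.44. Of 14 genes of calcium release and energy supply, 13 and 10 had such an excess. The calcium release channel Ryr1 had 4.94 and 2.95. The oxygen store Mb had 2.22 in the lung, and in the liver, where no other array was well above background, its tissue channel was at least 82.6-fold higher.
Myh8, a myosin heavy chain of newborn muscle, had an excess of 3.86 in the lung and 6.24 in the liver by its brighter probe and of 3.36 and 0.98 by the other. Myh3 of the embryo and Myh13 of eye muscles were not well above background on either array. Of 8 genes of muscle stem cells, myogenic factors and the nerve-muscle junction, 5 had an excess of at least 1 in the lung and 0 in the liver. In the lung they included Myf6, a myogenic factor kept on in mature fibres, the acetylcholine receptor subunit Chrna1 and its kinase Musk. These 3 were well above background on no other lung, and the tissue channel of each was at least 2.6-fold higher. The stem cell genes Pax7 and Myf5 had 0.33 and 0.01 there.

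Genes of other tissues moved on the same arrays, and their part in the muscle signal was not tested. In the lung of mouse 12, 6 of 8 genes of squamous epithelium had an excess of at least 1, among them the keratin Krt13 at 6.11, well above background on 3 of the other 14 lungs. Another keratin, Krt4, was so on none of them, and its tissue channel was at least 19.6-fold higher. The mean log2 ratio of that list was 2.55, against -0.54 to -0.25 in the other lungs. Of 5 brown fat genes 4 were raised, and the list mean was 2.84 against 0.17 to 1.09. Ucp1, which uncouples respiration for heat, was at 5.45 against lungs of which 1 of 14 was well above background. Cpt1b had 2.57 and Cidea 2.54. Elovl3 was well above background on no other lung, and its tissue channel was at least 1.68-fold higher. Of 6 white fat genes 5 were raised, but their mean of 3.18 lay within the range of the other lungs, 0.33 to 3.80.
None of 10 heart genes was raised in that lung, and 5 had an excess of -1 or less. Their mean was -0.01 against -0.13 to 2.80 in the others, with the atrial peptide gene Nppa at -0.13, the atrial light chain Myl7 not well above background and the atrial and adult myosin Myh6 at an excess of -4.59. None of 8 smooth muscle genes was raised either, with a median excess of -0.32. The 8 lung genes had excesses from -1.74 for Scgb1a1, made by airway club cells, to -0.41.
In the liver of mouse 17, 5 of 8 smooth muscle genes had an excess of at least 1, led by Cnn1 at 3.48 and Actg2, the actin of gut smooth muscle, at 2.91. The list mean was 0.33 against -1.60 to -0.72 in the other livers. Of 6 white fat genes 5 were raised, with Cfd, secreted by fat cells, at 6.31 and Adipoq at 3.11, and the mean was 2.98 against 0.24 to 1.87. Of 5 brown fat genes 1 was raised, and Ucp1 was not well above background. Of 10 heart genes only Tnnt2, which developing skeletal muscle also uses, was raised, at 2.06, and Nppa, Myl7 and Myh6 were not well above background. None of 8 squamous genes and none of 8 glandular stomach genes was raised. The 8 liver genes had excesses from -0.78 to -0.29.

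Among genes outside all these lists, the 15 with the largest excess were taken on each array. In the lung of mouse 12 they included Saa3, an acute-phase protein, at 7.03, the chemokine Ccl24 at 6.74 and Vsig4 at 6.10, a receptor of resident macrophages. Crct1, Lce3a and Krtdap, genes of squamous epithelium, were well above background on no other lung, and their tissue channel was at least 123-fold, 49.3-fold and 102-fold higher. Mt4 and Pkp1, of the same epithelium, had 5.92 and 5.24, and Timd4, Msr1, Clec4d and Fcna, known from myeloid cells, between 5.21 and 5.77. Fabp7 and Ada had 5.86 and 5.29. Of the other 14 lungs, Timd4 and Fabp7 were well above background on 2, Vsig4 and Fcna on 3 and Mt4 and Pkp1 on 4. The sizes of their excesses therefore depend on the background level.
In the liver of mouse 17 they included Spink4 at 5.01, Dmbt1 at 4.20 and Tff2 at 4.16, genes of mucosal secretions. Cyp1a1, the monooxygenase induced through the aryl hydrocarbon receptor, was at 3.87. Sln, the muscle calcium pump inhibitor sarcolipin, was well above background on no other liver. Fabp3 of heart and muscle had 3.66, Pdlim3 of the Z-disc 3.21, and Hrc, a calcium-binding protein of the sarcoplasmic reticulum, 3.15. Alox15, Prom1, Plxdc2, Ccl21a, Saa3 and Mmp7 had excesses between 3.04 and 3.39. The second probe of Prom1 had only 0.52, and that of Fabp3 3.27. Of the other 12 livers, Alox15 and Hrc were well above background on 1, Dmbt1 on 2 and Spink4 and Tff2 on 3, so the same limit holds for them.

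Among the other 14 lungs, Ttn, Myl1 and Ckm had the widest ranges. Ttn ran from -0.31 to 3.77, Myl1 from -2.92 to 1.72 and Ckm from -0.33 to 2.25. All 3 were highest in mice 2, 7, 15 and 20. Ttn was at 2.65, 3.22, 3.76 and 3.77 in those mice and at most 2.14 in the rest, and Myl1 at 0.82, 1.31, 1.58 and 1.72 there and at most 0.04 in the rest. Ckm was at 0.82, 1.39, 2.25 and 0.94 in those mice and at most 0.64 in the rest. These mice belong to the vehicle, low, medium and high dose groups, with 1 in each.
The 3 genes followed the mean of the 10 heart genes and those of the fibre type lists. Over the 14 lungs without mouse 12, Pearson's r with that mean was 0.969 for Ttn, 0.987 for Myl1 and 0.867 for Ckm, given as a description over arrays that share a reference RNA. The slow-fibre list, which shares genes with heart muscle, gave 0.977, 0.949 and 0.891 for the same genes, and the fast-fibre list 0.904, 0.887 and 0.741, so the heart list was not set apart from these. The r with the heart mean was 0.251 for Acta1, -0.221 for Tnni2, 0.2 for Neb and -0.055 for Myh4. In mouse 12 the heart list mean was -0.01 while Ttn, Myl1 and Ckm were at their highest. In the lung of mouse 20, the only other array whose score passed 0.5, Ttn, Myl1, Acta1, Tnni2, Actn3 and Tnnt3 were each the highest of these 14 lungs, with excesses of 2.59, 2.23, 0.58, 0.30, 0.83 and 0.54. Actn3 and Tnnt3 were not well above background there, and the median excess of the 10 genes was 0.51. The tissue signals of Acta1 and Tnni2 on this array were 116.5 and 125 units, where the 14 lungs ran from 99.5 to 353 and from 125 to 380. The high ratios of this pair thus did not come with high tissue signals, and the part of the slide in them was not tested. Neb, Mylpf and Myh4 had excesses of -0.22, -0.04 and -0.15 and were not well above background.

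**Figure D4:**
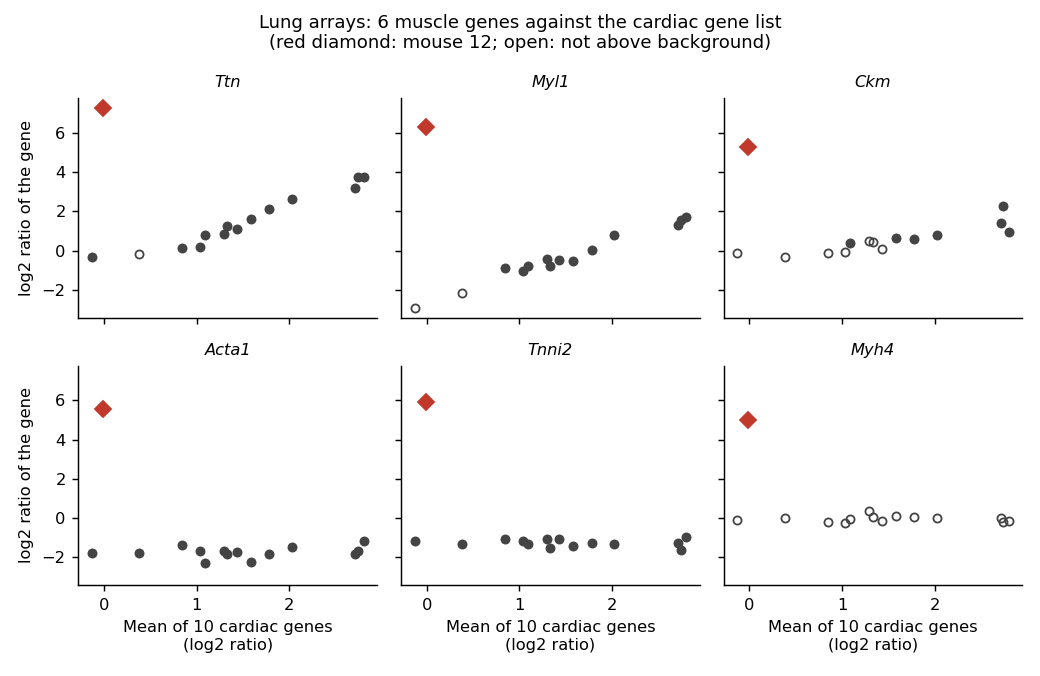
Log2 ratio of 6 muscle genes against the mean log2 ratio of 10 heart genes on the 15 lung arrays, with mouse 12 as a diamond and open points where the tissue signal was not well above background. Ttn, Myl1 and Ckm follow the heart genes over 14 lungs, with r of 0.969, 0.987 and 0.867, while Acta1, Tnni2 and Myh4 vary less, and mouse 12 lies apart in all 6 panels.

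Neb, which encodes nebulin, and Tnni2 were the members well above background on all 13 liver arrays. For Neb the 4 vehicle livers were at 3.34, 3.02, 3.14 and 3.35 and the whole set without mouse 17 between 2.24 and 3.68, and the second Neb probe, also well above background on all 13, lay between 0.47 and 1.95. The vehicle livers did not overlap with the vehicle lungs, at 0.08, 0.17, -0.07 and -0.06. Ratios from these probes do not say whether the transcript in liver is the full muscle form.
The vehicle groups of the 3 tissues were compared in 1 fit over all 42 arrays with limma, and a gene was called where the change reached 1.5-fold with an adjusted p no higher than 0.05. A difference between tissues can reflect more cells of a type or more RNA per cell, which cannot be told apart here, and liver lay on slides of its own, so slide and tissue cannot be told apart either. Neb was lower in vehicle lung than in vehicle liver by a difference of -3.18 ± 0.72 (SE; limma, adjusted p = 0.00029), the only member of 8 tested that was called there, where 40.2% of all probes were called. In vehicle forestomach, where it was not well above background, the forestomach minus liver difference was -3.26 ± 0.72 (SE; limma, adjusted p = 0.00027), and the tissue channel was at least 10.1-fold higher in liver. Myh4 and Mylpf were not tested, since they were well above background on too few arrays, and Ttn, Myl1, Ckm and Actn3 were well above background on no vehicle liver.

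Forestomach had a muscle pattern of its own, in which Acta1 and Tnni2 were well above background on all 14 arrays and Ckm on 10. Neb, Ttn, Mylpf and Myh4 were well above background on none, Myl1 and Actn3 on 1 each, and Tnnt3 on 7. In the 4 vehicle forestomachs Acta1 was at 2.56, 2.10, 2.62 and 2.65 and Tnni2 at 3.09, 2.10, 1.73 and 3.31. Both groups of values lay above every vehicle lung and liver. Acta1 was higher in vehicle forestomach than in vehicle lung, with a lung minus forestomach difference of -4.07 ± 1.1 (SE; limma, adjusted p = 0.0028), and the forestomach minus liver difference was 4.22 ± 1.1 (SE; limma, adjusted p = 0.0018). In vehicle liver it was not well above background, and the tissue channel was at least 23.3-fold higher in forestomach. For Tnni2 the lung minus forestomach difference was -3.78 ± 1.07 (SE; limma, adjusted p = 0.0042) and the forestomach minus liver difference 4.89 ± 1.07 (SE; limma, adjusted p = 0.00025).
These were the only members called between lung and forestomach, of 8 tested, where 29.9% of all probes were called. Between forestomach and liver 3 of 8 were called, Acta1, Tnni2 and Neb, against 33% of all probes. The standard errors come from a fit that includes both high arrays. Without those arrays the calls rose to 4 between lung and forestomach and to 5 between forestomach and liver. Ckm and Actn3 were added to both. Between lung and liver they rose to 2, with Tnni2 added. In the same order, 30.1%, 33.2% and 40.4% of all probes were then called. Actn3 was well above background on no vehicle forestomach or liver. In a fit on vehicle lung and forestomach alone, limma called 3, Acta1, Tnni2 and Tnnt3 (adjusted p = 0.015 for the last), and neither Actn3 (adjusted p = 0.059) nor Ckm (adjusted p = 0.07). The share of all probes called in that fit is not given, so this count cannot be set against it.
The other fast-fibre genes varied in forestomach. Myh1, Casq1 and Myoz1 were well above background on none of the 14 arrays, Pgam2 on 1, Mybpc2 on 4, and Tnnc2 and Atp2a1 on 5 each. Myh2, the type IIa myosin, was well above background on 11, from 0.00 to 3.43, the glycolytic enzyme gene Eno3 on 14, from -3.30 to 1.06, and Pvalb on 10, from -0.18 to 0.34. Of the slow genes, Atp2a2 and Tnnt1 were so on 14 arrays, from 0.40 to 1.72 and from -1.89 to -0.10, Casq2 on 13, from 0.24 to 3.35, and Myh7 on 10, from -0.34 to 4.02. Myl3 was so on 4, Myh7b on 2 and Tnni1, Tnnc1, Myl2 and Myoz2 on none. Acta1 followed the mean of the 8 smooth muscle genes over the 14 forestomachs, with a Pearson's r of 0.965, and the mean of the 10 other fast-fibre genes with an r of 0.952. For Tnni2 these were 0.483 and 0.478, and for Ckm 0.658 and 0.538. In mouse 12, the lowest forestomach for both, Acta1 was at 0.10 and the smooth muscle mean at 2.77, against up to 3.13 and 5.47 elsewhere.
Ckm fell into separate levels. It was between 2.17 and 2.65 in mice 2, 3, 11, 15 and 16 and at most 0.94 in the other 9. Of those 5 arrays 4 were all the forestomach arrays of 1 slide, and the array of mouse 11 was on another, where the other 2 were at 0.23 and 0.52. The lungs on the first of these slides, mice 3, 15 and 19, were at -0.14, 2.25 and 0.40. The part of the slide in this was not tested. The arrays with high Ckm were found both with and without glandular stomach genes: the mean of those genes was 6.05, 6.04 and 6.35 in mice 2, 3 and 15 and 1.83 and 1.27 in mice 11 and 16. Tnnt3 was highest in medium-dose mouse 15, at 1.81, against -1.02 to 0.69 on the other arrays.

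**Figure D5:**
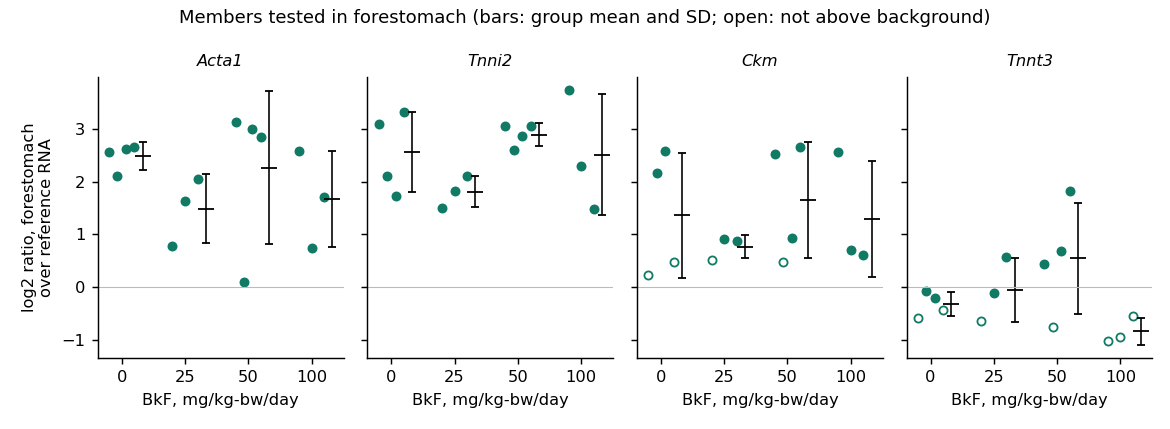
Log2 ratio of the 4 members tested in forestomach by BkF dose, with 1 point per array, bars for the group mean and SD (n = 4, 3, 4 and 3), and open points where the tissue signal was not well above background. Acta1 and Tnni2 lie above 0 on every array, and Ckm lies between 2.17 and 2.65 on 5 arrays and at or below 0.94 on the rest.

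No gene of the 10 passed the threshold for a BkF effect in any tissue. In lung 8 members were tested against vehicle, in liver 5 and in forestomach 4. In the liver set, Actn3 passed the filter on dim probes with the array of mouse 17 and 1 other, and would not have passed without the former. None was called by limma at the low, medium or high dose. Over all probes tested in lung, limma called 0% for the low, 0.0153% for the medium and 0.0336% for the high dose. In liver the shares were 0%, 0.0426% and 0.0524%, and in forestomach 0% throughout. Without adjustment, p was under 0.05 for 2 members, Ckm and Myl1, in lung at the medium dose and for 0 in each of the other 8 comparisons, beside 1389 of 32706 probes for the medium dose in lung. Both rest on the lung of mouse 12. Refitted without it and without the filter on dim probes, Ckm differed by 0.82 ± 0.44 (SE; limma, unadjusted p = 0.082). Myl1 differed by 1.20 ± 0.85 in that fit (SE; limma, unadjusted p = 0.18).
The medium-dose lungs and high-dose livers show how a single array enters a group mean. In lung Acta1 was at -1.83, 5.56, -1.69 and -1.69 in the medium-dose mice, against -1.77, -1.45, -1.76 and -1.38 in vehicle. Only mouse 12 lay above the vehicle range. The medium dose minus vehicle difference was 1.68 ± 1.19 (SE; limma, adjusted p = 1). Refitted without mouse 12 and, as for the refits below, without the filter on dim probes, it was -0.15 ± 0.21 (SE). Tnni2 went from 1.62 ± 1.19 to -0.22 ± 0.13 and Neb from 1.62 ± 1.04 to 0.01 ± 0.12. Ttn was at 1.16 ± 0.91 without that mouse, where mouse 15 was among the high lungs.
In liver Tnni2 was at -2.12, 4.44, -2.04 and -1.95 in the high-dose mice, against -2.33, -2.25, -2.23 and -2.54 in vehicle. All 4 high-dose livers, mouse 17 among them, lay above the vehicle livers, as did 2 of 2 low-dose and 2 of 3 medium-dose livers. How many of all probes separate dose groups in this way was not counted in any tissue. The high dose minus vehicle difference was 1.92 ± 1.11 (SE; limma, adjusted p = 0.71) with mouse 17. Refitted without that mouse and without the filter on dim probes, the difference was 0.30 ± 0.14 (SE; limma, adjusted p = 0.76). Neb was at 2.99, 4.24, 2.24 and 3.13 in the same mice and overlapped with vehicle. Acta1, Tnnt3 and Actn3 were well above background on no vehicle liver, and no fold is given for them.
In forestomach the largest difference was that of Acta1 at the low dose, at -1.0 ± 0.65 (SE; limma, adjusted p = 0.53), where the 3 low-dose arrays were at 0.77, 1.63 and 2.05, all below the vehicle arrays. At the medium dose Tnnt3 differed by 0.87 ± 0.42 (SE; limma, adjusted p = 0.67), with 3 of 4 arrays above all vehicle arrays. The high-dose effect was also compared between tissues. No member was called for lung compared with liver, lung compared with forestomach or liver compared with forestomach, where 0.0265%, 0.0106% and 0.00531% of all probes were called, and none had an unadjusted p under 0.05.

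The genes whose pattern was most like that of the 10 depended on the arrays with muscle RNA. Over all 15 lungs the highest Pearson's r with the mean of the 10 belonged to the muscle genes Trdn, Lmod3, Ankrd23, Hspb6 and Trim72, from 0.987 to 0.993. Without mouse 12 the highest were Tnnc1, Pgam2, Myl4, Tnnt2 and Tnni3, from 0.964 to 0.981 over 14 lungs. The last 3 of these are heart genes, and over all 15 lungs their r was -0.187, -0.080 and -0.218. In liver the highest over 13 arrays were Ryr1, Myh8, Tnnc2, Eno3 and Myl2, at 0.994 to 0.995, and without mouse 17 their r fell to between 0.277 and 0.427. In forestomach they were Syde1, Slc25a4, Cavin3, Tubb6 and Glipr1, from 0.931 to 0.951 over 14 arrays. Slc25a4 is the mitochondrial ADP/ATP carrier of heart and muscle.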

How the data were processed

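RNA of each tissue was labelled with Cy5 and the reference RNA with Cy3, and both were hybridised to 2-colour Agilent 8x60K mouse arrays. Per the file headers the deposited intensity values came from Feature Extraction, version 11.0.1.1 in liver and 10.7.3.1 in the other tissues, and the median signal of each spot without background subtraction was used, as in the study's methods. Ratios were normalised by loess within each array (limma 3.58.1, R 4.3.3), with weight 0 for control and outlier spots, and spots of a probe were averaged, giving 55681 probes, of which 26413 matched a RefSeq symbol. Per the file headers the same software had deposited a log10 ratio of processed signals, which served as an alternative after conversion to log2. The study's MAANOVA was not run. Per gene the probe with the highest mean tissue signal over the 42 arrays was used. Probes well above background in the tissue channel on at least 3 lung, 2 liver or 3 forestomach arrays were tested with limma and Benjamini-Hochberg adjustment, on 32706, 30509 and 25326 probes, or 37667 in the fit over all tissues. Arrays of 1 mouse number come from the same animal; their consensus correlation was 0.0594. The authors also deposited a table of processed log2 ratios. Its 29 lung and forestomach columns correlated with these ratios at 0.994 or more. Its 13 liver columns did not (r between -0.003 and 0.000) although their sorted values did (at least 0.999) and they correlated among themselves at 0.926 or more, so the row names do not hold for liver and that table was not used there.

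The members and all gene lists were chosen with earlier results of these data known. Named genes were the members, the fast-fibre and slow-fibre lists, the leading genes of the other lists, the 15 unlisted genes with the largest excess on each array that scored 2 or more, and the 5 genes most correlated with the members in each tissue. Some of the unlisted genes are not reported here. Alternatives were the scanner software's ratio, normexp background correction (offset 50), no filter on dim probes, slide or mouse as a block, the deposited table, all probes of a gene, the tissue channel alone, fits on 2 groups, and leaving out each array; leaving out both high-scoring arrays was added after seeing the data. The tests were checked on simulated data.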

Additional observations from a re-analysis of the deposited data

Results flagged for a closer look

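Of 70 sets of 4 arrays, 1 for each of the 10 genes in each dose group of that size, 16 held an array whose gap to its nearest neighbour was a large part of the whole range of the set. The sets were picked with the 95% critical value of Dixon's test, which chance passes in about 1 set in 20. The value given is that gap as a share of the range. Of the 16 sets, those of mice 12 and 17 in lung and liver restate how the genes were chosen and are given as a description, from which nothing is read. In the medium-dose lungs mouse 12 was highest, with shares of 0.981 for Acta1, 0.936 for Tnni2, 0.987 for Neb, 0.934 for Tnnt3, 0.941 for Mylpf and 0.943 for Myh4. In the high-dose livers mouse 17 was highest, with shares of 0.888 for Acta1, 0.974 for Tnni2, 0.958 for Myl1, 0.939 for Ttn, 0.975 for Ckm, 0.953 for Tnnt3 and 0.967 for Myh4. In the vehicle lungs Ttn of mouse 2, at 2.65 against 0.12 for its neighbour, had a share of 0.855. In the high-dose lungs Myl1 of mouse 20, at 1.72 against -0.42, had 0.848. In the medium-dose forestomachs Acta1 of mouse 12 was lowest, at 0.10 against 2.85, with a share of 0.907.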

How the results depend on the processing

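The score of the lung of mouse 12 was 5.86, and was 6.37 with the scanner software's ratio and 6.78 with the tissue channel alone. That of the liver of mouse 17 was 4.14, and was 6.11, 3.74 and 3.81 with the scanner software's ratio, the tissue channel alone and the mean of all probes of a gene. The median excess of the fast genes less that of the slow genes, over different probes and starting levels, was 2.62 in that lung, and was 3.96 with the scanner software's ratio and 3.4 with the tissue channel alone. In that liver it was 2.47, and was 3.66 and 2.18 under the same settings. Both arrays scored above 2 under every setting run, and the cause of these shifts was not tested. The count of members called was 0 in all 9 dose comparisons under every alternative, including each array left out. Members called between vehicle lung and liver rose from 1 to 2 in a fit on the 2 groups alone. They also rose to 2 with both high arrays left out, where 40.4% of all probes were called. Between vehicle forestomach and liver they rose from 3 to 7 and to 5 under those settings, and between vehicle lung and forestomach from 2 to 3 and to 4. With both high arrays left out, 33.2% and 30.1% of all probes were called in these comparisons. The 7 include Myl1 and Actn3, which were well above background on no vehicle forestomach or liver. Shares of all probes for the fits on 2 groups alone are not given. With the mouse number as a replicate block the counts were 1, 3 and 2, so the block changed no call count, and it left 0 members called in the 3 comparisons of the high-dose effect. The deposited table was not run for liver. The number of arrays, 2 to 4 a group, limits the precision, and in liver and forestomach many members lay near background.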
